A study of Mus musculus with 24 samples.

Results

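The genes described here are 38 mouse genes for building ribosomes, with the polyamine enzymes that accompany them among the targets of the transcription factor MYC. They were chosen by name and function, with no threshold on a measured value, though with earlier results of these data known. Of the 38, 36 had a probe set assigned to that gene alone, out of 18193 genes so represented on the array. Each gene was read from its probe set with the highest mean signal over the 24 arrays, and all 36 passed the filter on dim probe sets. Npm3, a histone chaperone, had no probe set of its own in the table, and the probe set of Mrto4, a large subunit assembly factor, was annotated to several genes, so neither has a value.

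Ribosomes are assembled in the nucleolus. RNA polymerase I transcribes the long ribosomal RNA precursor, small nucleolar ribonucleoproteins (snoRNPs) guide its methylation and pseudouridylation, and successive sets of factors fold and cut it into the small and large subunits. Resting lymphocytes keep this machinery low, enlarge their nucleoli when they are activated, and rely on MYC, which binds E-box sequences of many of these genes, for much of that growth program. Polyamines, made by ornithine decarboxylase and spermidine synthase, bind RNA and are needed for growth.

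All groups were B-lineage cells of the spleen of female C57BL/6 mice, 8 to 10 weeks old at use or at immunization, with 3 arrays each in 8 groups. Naive cells were sorted as follicular (B220+ AA4.1- CD21int CD23+) and as marginal zone (CD21high CD23low) B cells, and follicular cells were also cultured for 6 h with anti-IgM (10 µg/ml), which cross-links the antigen receptor, and anti-CD40 (2 µg/ml), which mimics a T cell signal. From mice immunized with NP-CGG in alum, hapten-binding memory (IgG1+ CD38+ PNA-) and germinal center (IgG1+ CD38dull PNA+) B cells were sorted on day 7 or day 40 after immunization; CD138+ plasma cells came from day 7. The stimulated group had no counterpart here that was cultured without the antibodies, so culture and stimulation cannot be told apart. RNA was amplified before labelling and measured on Affymetrix mouse genome arrays.

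Values are log2 signals, which ran from a floor of 2.15 to 16.43; array medians lay between 2.39 and 2.86, and 36.8% to 43.1% of probe sets of an array were at the floor. How precise a value is depends on having 3 arrays a group. A gene was called higher or lower when limma gave it a Benjamini-Hochberg adjusted p under 0.05 over 11208 genes tested and a log2 change of at least 1 in size; changes are given ± SE. Whether samples of a group are separate mice is not said in the labels, so p-values measure only the spread between samples, which may be technical. The sorted populations carried their markers: summed germinal center markers stood at 83.3 to 89.2 in germinal center arrays and at 35.7 to 37.5 in follicular arrays, and summed plasma cell markers at 96.1 to 97.6 in plasma cell arrays and at 55.2 to 58.8 in follicular arrays. Marginal zone markers summed to 67.2 to 67.5 in marginal zone and 45.8 to 48.1 in follicular arrays, and the follicular marker Fcer2a to 12.9 to 13.1 in follicular arrays and 8.3 to 8.9 in marginal zone arrays. NK cell marker sums lay between 15.2 and 19.4 everywhere. T cell and erythroid markers were at or near the floor in follicular, marginal zone, stimulated, day 7 memory and germinal center cells, while T cell marker sums reached 17.6 in day 40 memory and 15.9 to 22.3 in plasma cells, against 13.2 in follicular cells. Of the day 7 memory arrays, replicate 1 had the highest germinal center marker sum, 75.9 against a lowest of 42.8. Bulk signals do not tell fewer cells of a type from less RNA per cell.

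Promoters of 33 of the 38 genes were found in RefSeq (GRCm38.p6), as windows of 300 bases from 250 before to 50 after the transcription start. Fbl, Npm1, Rrp12, Bop1 and Srm were not among them. The canonical E-box CACGTG, a palindrome, lay in a window of 5 of the 33 (15.2%), against 8.91% of the 17491 genes in the table, some of which have several windows. These are the 5 sites, shown because MYC and its partner MAX bind this sequence; capitals mark the motif, and each is read on the strand of its gene.
Nop2 (chr6:125131811-125131840, plus strand, motif first base at position -60 from the start): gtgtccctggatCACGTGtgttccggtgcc
Pes1 (chr11:3963965-3963994, plus strand, position 3 after the start): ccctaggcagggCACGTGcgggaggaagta
Wdr43 (chr17:71616220-71616249, plus strand, position 18): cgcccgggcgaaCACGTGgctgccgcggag
Tsr1 (chr11:74898092-74898121, plus strand, position 25): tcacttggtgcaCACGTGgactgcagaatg
Utp20 (chr10:88826765-88826789, minus strand, position 38): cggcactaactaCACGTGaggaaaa
The variants CACGCG and CATGTG lay in windows of 9 (27.3%, against 13.7% of all genes) and 7 (21.2%, against 13.2%). The GC box GGGCGG was found in 25 (75.8%, against 49.2%) and the ETS core CCGGAA in 15 (45.5%, against 20.9%), while TATAAA was found in 3 (9.09%, against 14.8%). Motifs were searched on both strands, and a match is a description of letters, not a binding site. These windows precede the starts of the 4 genes with the largest rises among those with a promoter whose upstream 100 bases are shown; capitals mark GGGCGG in Polr1b and CCGGAA in Nhp2, and none of the motifs searched lies in the stretches of Nop16 and Rrp9.
Polr1b (chr2:129100896-129100995, plus strand): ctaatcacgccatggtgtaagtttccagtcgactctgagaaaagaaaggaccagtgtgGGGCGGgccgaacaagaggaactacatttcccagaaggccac
Nop16 (chr13:54590075-54590174, minus strand): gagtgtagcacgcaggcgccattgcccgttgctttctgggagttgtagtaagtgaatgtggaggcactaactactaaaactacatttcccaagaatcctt
Rrp9 (chr9:106477209-106477308, plus strand): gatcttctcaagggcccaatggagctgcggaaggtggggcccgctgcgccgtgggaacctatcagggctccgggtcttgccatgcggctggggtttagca
Nhp2 (chr11:51619673-51619772, plus strand): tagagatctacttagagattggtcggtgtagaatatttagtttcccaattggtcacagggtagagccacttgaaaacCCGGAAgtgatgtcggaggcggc

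Stimulated follicular cells were first set against unstimulated ones. Nearly the whole set rose: 34 of 36 genes were called higher and 0 lower, where 16.9% of all genes tested were called higher and 22.4% lower. The median log2 change of the 36 was 1.97, against -0.02 over all genes, and the changes ran from 0.58 to 3.79. In all 36 the 3 stimulated arrays lay above the 3 unstimulated arrays, as for 25.8% of all genes. At an unadjusted p under 0.05, 36 lay above and 0 below 0. The share of all genes at that cut is not given, here or below. Such counts therefore have no background and were not read as enrichment. The 2 uncalled genes, Ddx21 (0.58 ± 0.11, adjusted p = 2.82e-04) and Npm1 (0.84 ± 0.11, adjusted p = 4.34e-06), missed only the minimum size.

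**Figure D1:**
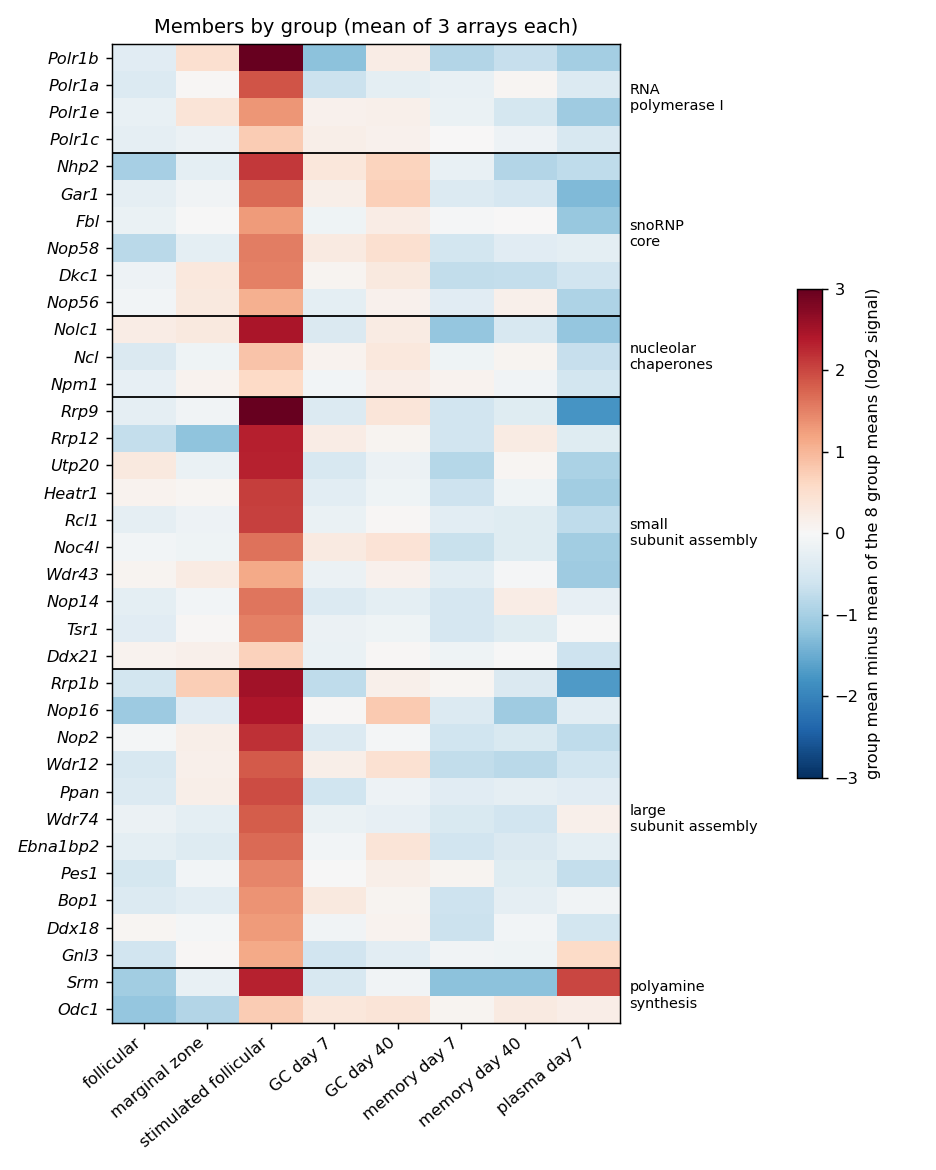
Each row is 1 of the 36 genes with a value, grouped by role, and each column 1 of the 8 groups; the colour is the mean of 3 arrays minus the mean of the 8 group means, in log2 signal, with colours limited at 3 (Polr1b and Rrp9 in stimulated cells exceed it, up to 3.45). The stimulated column is the highest in all 36 rows, and the lowest value, -1.76, is that of Rrp9 in plasma cells.

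The RNA polymerase I subunits all rose (4 of 4, median 1.92). Polr1b, the second largest subunit, stood at 6.12, 8.54 and 8.26 in the 3 follicular arrays, at 11.33, 11.13 and 11.83 after stimulation, and between 6.48 and 8.78 on the other 18 arrays. Every stimulated array was thus clear of all the rest, while the follicular arrays were split by a low replicate 1. The change was 3.79 ± 0.42 (13.8-fold, adjusted p = 2.96e-07) and 3.03 without that replicate. Polr1a, the largest subunit, read 8.40, 8.37 and 8.63 before and 10.77, 10.58 and 10.92 after stimulation. Its range on the other 18 arrays, 7.52 to 9.33, overlapped the follicular values and not the stimulated ones. The rise was 2.29 ± 0.32 (adjusted p = 5.09e-06). Polr1c, which RNA polymerase III shares, rose least of the 4, by 1.03 ± 0.17 (adjusted p = 3.58e-05), from 11.86, 11.76 and 11.65 to 12.67, 12.62 and 13.08. It missed the minimum size without follicular replicate 3 (0.98) or stimulated replicate 3 (0.89). Polr1e, the remaining subunit, rose by 1.54 ± 0.12.

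The 6 snoRNP core genes also rose without exception (median 1.81). Among the proteins of the pseudouridylation particles, Nhp2 went from 10.29, 10.35 and 10.40 to 13.30, 13.33 and 13.82, a change of 3.14 ± 0.16 (8.79-fold, adjusted p = 8.73e-12). All other 18 arrays lay between 10.25 and 12.11, below every stimulated array. Gar1, of the same particles, went from 11.70, 11.87 and 11.80 to 13.80, 13.73 and 13.73 (1.96 ± 0.17). The pseudouridine synthase Dkc1 rose by 1.66 ± 0.22. In the methylation particles Nop58 rose by 2.35 ± 0.16, the methyltransferase Fbl by 1.49 ± 0.14 and Nop56 by 1.15 ± 0.20, the smallest rise of the class. Nop56 read 13.38, 13.41 and 13.26 before and 14.41, 14.58 and 14.50 after stimulation, with no overlap.

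Of the 3 nucleolar chaperones with a value, 2 were called. Nolc1, a chaperone of snoRNPs, stood at 11.42, 11.17 and 11.32 and then at 13.57, 13.49 and 13.53 (2.23 ± 0.24, adjusted p = 1.91e-07). Ncl (nucleolin), the abundant RNA-binding protein of the nucleolus, moved from 13.75, 13.51 and 13.55 to 14.90, 14.88 and 14.90 (1.29 ± 0.11, adjusted p = 1.23e-08). Npm1 (nucleophosmin) moved from 14.42, 14.53 and 14.44 to 15.42, 15.24 and 15.25 without passing the size threshold. Groups did not overlap in any of the 3.

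Small subunit assembly gave 9 of 10 genes called (median 1.94). Rrp9, a protein of the U3 snoRNP that is needed to cut the precursor, read 6.75, 7.81 and 7.45 before stimulation and 10.29, 10.51 and 11.40 after it. Both groups spread widely, yet the lowest stimulated array was above the highest of all other arrays, 8.32 in germinal center cells of day 40. The change was 3.40 ± 0.29 (10.5-fold, adjusted p = 1.15e-08). Rrp12, a factor for export of precursor subunits, went from 7.14, 8.24 and 7.59 to 10.29, 10.80 and 11.07 (3.06 ± 0.34, adjusted p = 3.28e-07). The other rises were those of Rcl1 (2.33 ± 0.15), Utp20 (2.01 ± 0.17), Heatr1 (1.96 ± 0.19), Nop14 (1.92 ± 0.18), the GTPase-like Tsr1 (1.86 ± 0.16), Noc4l (1.71 ± 0.24) and Wdr43 (1.05 ± 0.11). Wdr43 missed the minimum size without follicular replicate 1 (0.98) or stimulated replicate 1 (1.0). The RNA helicase Ddx21 read 14.41, 14.27 and 14.36 before and 15.07, 15.03 and 14.67 after stimulation.

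For large subunit assembly 11 of 11 genes were called (median 2.00). Nop16 went from 6.77, 7.88 and 8.06 to 11.08, 10.90 and 11.30, a change of 3.52 ± 0.28 (11.5-fold, adjusted p = 3.64e-09). Follicular replicate 1 was again low, and the change was 3.12 without it. Rrp1b moved from 10.51, 10.42 and 10.88 to 13.61, 13.43 and 13.90 (3.04 ± 0.18, adjusted p = 9.16e-11). The 3 partners of the PeBoW complex, which processes large subunit RNA, rose by 1.99 ± 0.17 (Pes1), 1.75 ± 0.23 (Bop1) and 2.34 ± 0.16 (Wdr12). Gnl3 (nucleostemin), a nucleolar GTPase, read 12.56, 12.97 and 12.76 and then 14.43, 14.51 and 14.48 (1.71 ± 0.17). Ppan (2.36 ± 0.20), the RNA methyltransferase Nop2 (2.23 ± 0.18), Ebna1bp2 (2.00 ± 0.15), Wdr74 (1.98 ± 0.18) and the helicase Ddx18 (1.21 ± 0.16) completed the class.

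Both polyamine enzymes rose. Srm, spermidine synthase, went from 9.84, 10.27 and 10.00 to 13.17, 13.38 and 13.58 (3.34 ± 0.21, 10.1-fold, adjusted p = 1.49e-10). Odc1, ornithine decarboxylase, went from 12.68, 12.25 and 12.05 to 14.22, 14.25 and 14.29 (1.93 ± 0.16, adjusted p = 7.18e-09). Srm was the only one of the 36 genes in which the stimulated arrays did not clear all 21 others, because plasma cells reached 12.91, 13.18 and 13.14. The remaining 35 did so, as 9.33% of all genes did.

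**Figure D2:**
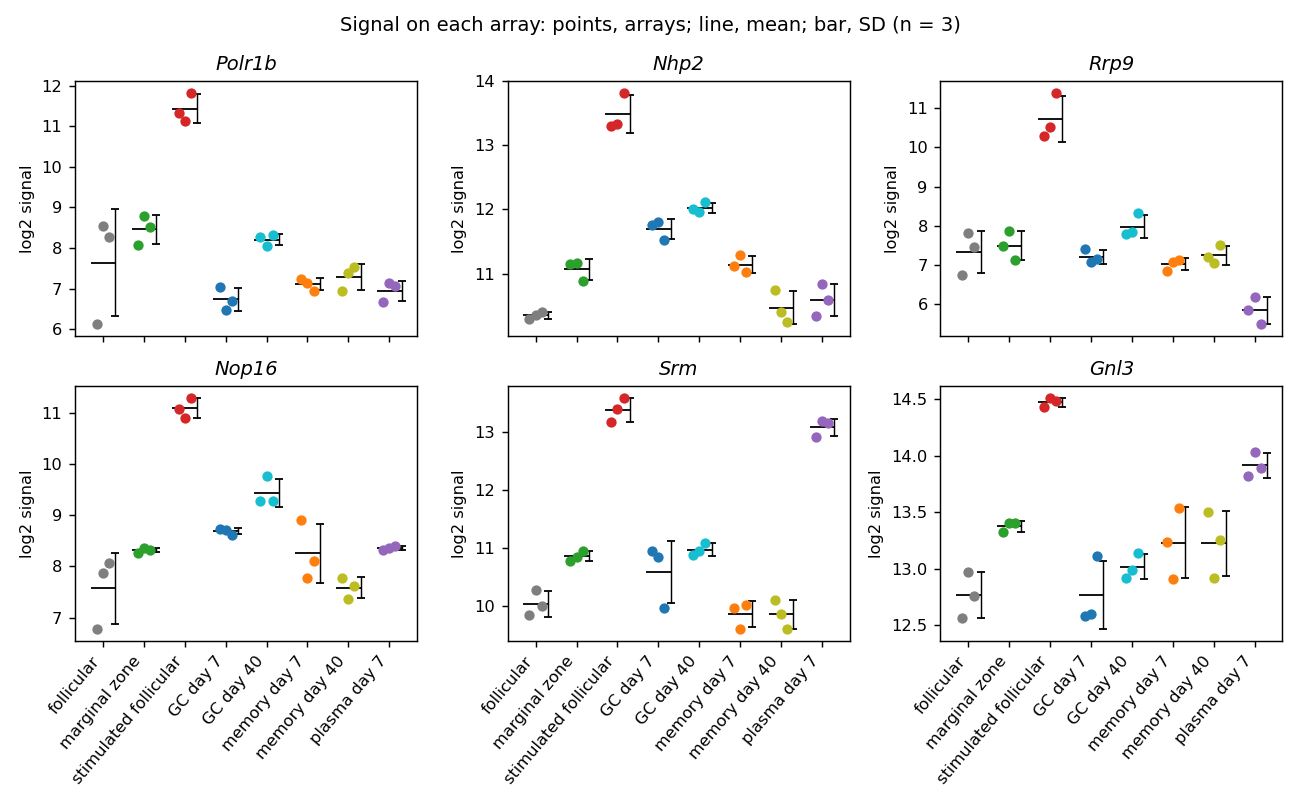
Log2 signal on each of the 24 arrays for 6 genes; points are arrays, the line is the mean and the bar the SD of 3 arrays, and axes do not start at 0. Stimulated follicular cells are highest in each panel, plasma cells come close for Srm (12.91 to 13.18), and follicular replicate 1 is low for Polr1b (6.12) and Nop16 (6.77).

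The genes with a canonical E-box in the window lay on both sides of the member median of 1.97, with changes of 2.23 (Nop2), 2.01 (Utp20), 1.99 (Pes1), 1.86 (Tsr1) and 1.05 (Wdr43).

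Signal scale and cell markers also moved with stimulation. Stimulated arrays had medians of 2.52 to 2.86 and upper quartiles of 8.60 to 8.91, against 2.41 to 2.56 and 8.84 to 9.14 in follicular arrays. With arrays shifted to a common upper quartile the median change of all genes became 0.30, a shift of 0.32, and the split of all calls turned from 1891 higher and 2514 lower to 2568 and 2002. The members then gave 35 higher and 0 lower. Summed B cell markers (4 genes, none at the floor on all 3 arrays) stood at 42.7 to 44.4 after and 51.3 to 51.6 before stimulation, and their part in the result was not tested. Of these markers, Pax5 read 2.16, 3.12 and 3.55 after stimulation, near the floor in replicate 1, and 5.95, 6.62 and 6.47 before. Myeloid marker sums were 17.1 to 20.8 after and 23.6 to 25.4 before stimulation, with 5 and 4 of the 7 markers at the floor, Itgam, Csf1r, S100a8 and S100a9 in both groups.

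Other probe sets of the same genes moved the same way. Of 35 for 23 of the genes, 33 were above the array median on at least 3 of the 18 arrays outside this comparison, a filter chosen after seeing the data, and 2 were not and are left out. All 33 were higher after stimulation, and in 27 the change was larger than in the chosen probe set, with a median of 2.26 against 1.73 for the chosen ones of the same genes. Ddx21 changed by 2.48 in its other probe set, and Odc1 by 2.45 and 4.60 in its others. For Ncl they gave 2.96, 2.26, 3.35 and 0.91, against 1.29 in the brightest one.

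Genes of the pathway outside the 38, taken from lists of known factors, also rose in part. These and the other gene lists used below were chosen with earlier results of these data known. Of 84 other genes for RNA polymerase I and subunit assembly, 51 rose and 0 fell (median 1.25; 72 above and 2 below 0 at an unadjusted p under 0.05 in limma). The small subunit list gave 25 of 34, led by Bysl (3.03 ± 0.24) and Pno1 (2.98 ± 0.18), and the large subunit list 22 of 38, led by Wdr18 (2.94 ± 0.42) and Rrp15 (2.87 ± 0.14). The polymerase I list gave 4 of 12, led by the shared subunit Polr2h (2.11 ± 0.24) and Taf1c (1.53 ± 0.41). In the RNA exosome, which trims the precursors, 5 of 12 rose, among them the nuclease Dis3 (2.11 ± 0.27) and Exosc6 (2.05 ± 0.30). RNA polymerase III gave 3 of 8, led by its subunit Polr3g (3.13 ± 0.51). Over 37 alternative settings the count for the 84 genes ran from 47 to 65.

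Of 24 MYC target genes outside ribosome assembly 22 rose and 0 fell (median 1.86; 24 above and 0 below 0 at an unadjusted p under 0.05 in limma). The folate carrier Slc19a1 (4.10 ± 0.34) and the pyrimidine synthesis enzyme Cad (2.88 ± 0.49) led them. Of the cytosolic ribosomal proteins themselves 13 were tested and 0 were called in either direction by limma, with a median of 0.06 (2 above and 0 below 0 at an unadjusted p under 0.05). The median of their follicular means was 15.11, near the top of the scale at 16.43, where a rise may not be measurable.

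Germinal center cells were compared with follicular cells. All comparisons with follicular cells share those 3 arrays. Of the 36 genes 4 rose at day 7 and 4 at day 40, with 0 lower, where 14.4% and 16.8% of all genes were called higher and 16.6% and 15.6% lower. At an unadjusted p under 0.05, 13 and 18 members lay above 0 at day 7 and day 40, and 6 and 1 below. The shares of all genes above are for calls and do not apply to these counts. Without follicular replicate 2 the day 40 rises numbered 7, and without follicular replicate 1 there was 1 fall at day 7. All 3 arrays lay above the follicular arrays in 12 and 19 of the 36 genes (28.1% and 32.8% of all genes) and below them in 6 and 1 (29.5% and 31.2%). The same 4 genes were called on each day. Odc1 rose by 1.5 ± 0.16 and 1.56 ± 0.16, Nhp2 by 1.35 ± 0.16 and 1.68 ± 0.16, Nop16 by 1.12 ± 0.28 and 1.87 ± 0.28, and Nop58 by 1.08 ± 0.16 and 1.29 ± 0.16; the largest adjusted p was 0.00248. The median change over the 36 was 0.12 at day 7 and 0.43 at day 40.

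By array, Nhp2 read 11.76, 11.81 and 11.52 at day 7 and from 11.96 to 12.11 at day 40, all above the follicular arrays and below the stimulated ones. Nop16 read 8.74, 8.71 and 8.62, then 9.28, 9.76 and 9.28. The day 7 call of Nop16 rested on follicular replicate 1 (0.72, adjusted p = 0.0184 by limma, without it), and its other probe set moved the opposite way, by -0.58. At day 40 that other probe set gave 0.33, against 1.87 in the chosen one. Odc1 read 13.81, 13.78 and 13.90, then 13.95, 13.93 and 13.77, close under its stimulated values. Nop58, the scaffold of the methylation particles, read 12.51, 12.67 and 12.05, then 12.60, 12.70 and 12.56, against 11.38, 11.32 and 11.30 in follicular cells. Replicate 3 of day 7 was the lowest of its group for Nop58, and the groups did not overlap, but the day 7 call missed the minimum size without germinal center replicate 2 (0.95). Summed myeloid markers were 23.4 to 39.6 at day 7 and 22.8 to 57.6 at day 40, against 23.6 to 25.4 in follicular cells, with Itgam and Adgre1 at the floor on both days. Day 40 replicate 1 stood apart, with S100a8 at 12.47 and S100a9 at 13.84 against 2.15 in the other replicates, and without it the day 40 count was again 4.

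Set directly against day 7 germinal center cells, stimulated follicular cells had 31 genes higher and 0 lower (18.8% and 23.2% of all genes), with a median of 1.70. In all 36 the stimulated arrays lay above the germinal center arrays, as for 27.2% of all genes. Polr1b showed the largest difference (4.69 ± 0.42, 25.8-fold), followed by Rrp9 (3.52 ± 0.29), Rrp1b (3.28 ± 0.18) and Nolc1 (2.89 ± 0.24). With arrays shifted to a common median the split over all genes turned from 2111 higher and 2605 lower to 2911 and 2075, and the members gave 34 higher. The 5 not called were Odc1 (0.42, adjusted p = 0.0293), Polr1c (0.59), Npm1 (0.66), Ncl (0.74) and Ddx21 (0.88).

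Among the other assembly genes 3 rose and 3 fell at day 7, and 6 rose and 2 fell at day 40, of 84. Bysl (1.35 ± 0.24 and 1.57 ± 0.24) rose on both days, whereas the AAA ATPase Mdn1 (-1.58 ± 0.15) fell at day 7 and the polymerase I factor Taf1a (-1.27 ± 0.33 and -1.38 ± 0.33) fell on both. The other MYC targets gave 8 higher and 3 lower of 24 at day 7, and 9 and 1 at day 40, led by the helicase Ruvbl2 (1.48 ± 0.22 and 1.96 ± 0.22). Ccnd2, cyclin D2, fell by 7.51 ± 0.31 at day 7 and by 1.78 ± 0.31 at day 40.

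**Figure D3:**
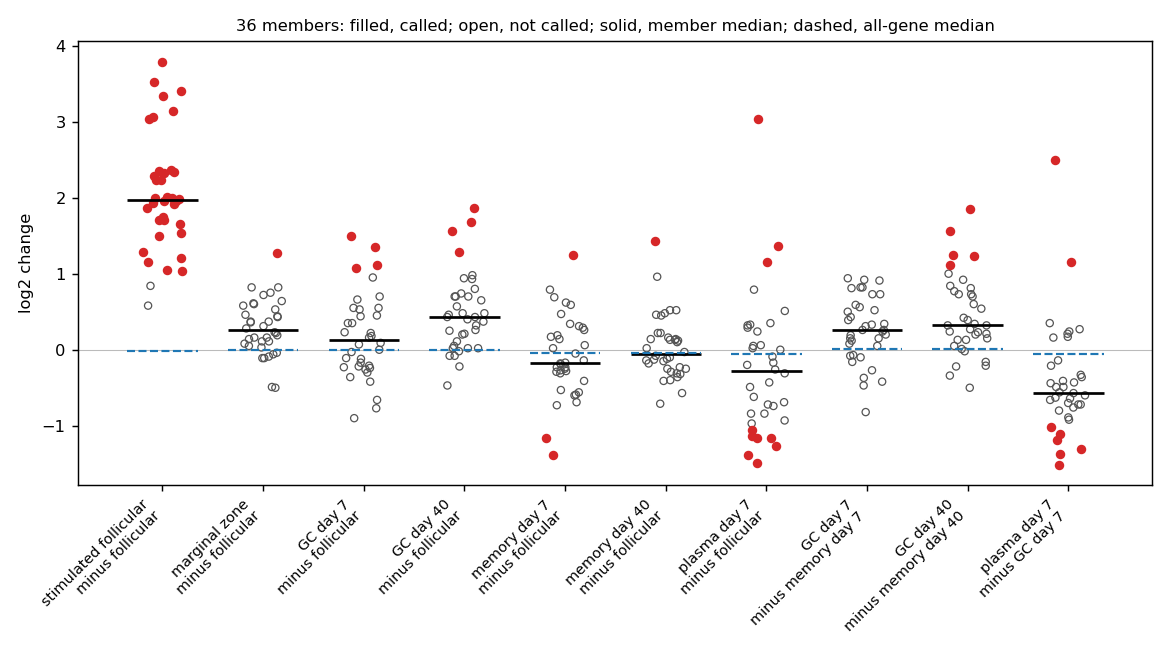
Log2 change of each of the 36 genes in 10 comparisons; filled points were called, open points were not, the solid line is the median of the 36 and the dashed line that of all genes tested. The 36 stand clear of the all-gene median after stimulation (1.97 against -0.02) and spread on both sides of it elsewhere, as in plasma cells (3 higher and 7 lower).

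Calls in plasma cells, which secrete antibody, went both ways and were no more frequent than over all genes. Against follicular cells 3 genes rose and 7 fell (20.3% and 22.4% of all genes), with a median of -0.28 against -0.05 over all genes. Estimates with an unadjusted p under 0.05 in limma lay above 0 in 5 genes and below 0 in 17. All plasma cell arrays lay above the follicular arrays in 6 genes (31.7% of all genes) and below them in 17 (36.2%). Plasma cells were the lowest of the 8 groups for 17 of the 36 genes (22.2% of all genes), and for 10 all 3 plasma cell arrays lay below the other 21 (9.96% of all genes). Srm, Odc1 and Gnl3 rose; Rrp9, Nolc1, Utp20, Rrp1b, Wdr43, Heatr1 and Gar1 fell.

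Srm rose by 3.04 ± 0.21 (8.22-fold, adjusted p = 3.52e-10), with plasma cells at 12.91, 13.18 and 13.14 and follicular cells at 9.84, 10.27 and 10.00. Odc1 rose by 1.36 ± 0.16, to 13.64, 13.92 and 13.51, and its other probe sets gave 1.68 and 4.3. Gnl3 rose by 1.15 ± 0.17, to 13.82, 14.03 and 13.89, which is under its stimulated values and above its other arrays. The polyamine enzymes were thus the class whose members were both called higher. The probe sets of Srm, Odc1 and Gnl3 have identifiers that mark probes shared between transcripts or genes, and without such probe sets these 3 genes have no value.

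Rrp9 fell by 1.49 ± 0.29 on the log2 scale (adjusted p = 2.11e-04), to 5.86, 6.19 and 5.49, below all other arrays. Utp20, of the small subunit processome, fell by 1.26 ± 0.17, from 11.22, 11.10 and 11.19 to 9.74, 10.16 and 9.83. Nolc1 fell by 1.39 ± 0.24, to 9.65, 10.16 and 9.94, Rrp1b by 1.16 ± 0.18, to 9.40, 9.60 and 9.33, and Wdr43 by 1.16 ± 0.11, to 11.95, 11.81 and 11.75. For these 3 genes another probe set moved the other way: Nolc1 gave 0.49 and 1.13, Rrp1b -0.11 and 1.32, and Wdr43 0.71. Heatr1 (-1.14 ± 0.19) and Gar1 (-1.05 ± 0.17) fell by amounts near the minimum size, and with arrays shifted to a common upper quartile they gave -0.99 and -0.91, not called. After averaging its probe sets Heatr1 gave -0.71, not called (limma adjusted p = 0.0559). Its other probe sets gave -0.91 and -0.07, the latter above the array median on only 4 arrays. Gar1 also missed the minimum size without plasma cell replicate 1 (-0.91) or replicate 3 (-0.99). Nop16 was not called (0.79), and its other probe set gave -1.57.

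Against day 7 germinal center cells plasma cells had 2 genes higher and 6 lower (18.1% and 20.1% of all genes; median -0.56). All arrays lay above in 4 genes (27.2% of all genes) and below in 18 (34.0%). Estimates with an unadjusted p under 0.05 in limma lay above 0 in 2 genes and below 0 in 22. Srm (2.49 ± 0.21) and Gnl3 (1.15 ± 0.17) rose. Gar1 fell by 1.51 ± 0.17, to 10.44, 11.16 and 10.61 from 12.05, 12.58 and 12.10. Rrp9 (-1.37 ± 0.29), Noc4l (-1.31 ± 0.24), Polr1e (-1.19 ± 0.12), Nhp2 (-1.11 ± 0.16) and Fbl (-1.02 ± 0.14) also fell, so that the snoRNP core gave 3 of the 6 falls. Nhp2 missed the minimum size without plasma cell replicate 1 (-0.99) and with arrays shifted to a common median (-0.98). All 6 other probe sets of the called genes had the same sign. Fbl missed the minimum size without cross-hybridizing probe sets (-0.98) and, narrowly, with the mean of its probe sets (-1.0). It also missed it with arrays shifted to a common upper quartile (-0.91) or median (-0.89), and without germinal center replicate 1 (-0.88).

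The other assembly genes gave 4 higher and 11 lower of 84 in plasma against follicular cells. Krr1 (2.09 ± 0.13), Utp23 (1.88 ± 0.36) and Wdr18 (1.27 ± 0.42) were among the rises, and Mdn1 (-2.13 ± 0.15), Taf1c (-2.10 ± 0.41) and Pwp2 (-2.08 ± 0.22) were the largest falls. In the exosome 5 of 12 fell, led by Exosc6 (-1.44 ± 0.30) and Exosc5 (-1.30 ± 0.24), and in RNA polymerase III 4 of 8 fell and 1 rose (Polr3k, 1.44 ± 0.13). The other MYC targets gave 4 higher and 3 lower of 24, from Ccnd2 (2.83 ± 0.31) to the DNA repair enzyme Apex1 (-2.13 ± 0.20). Of the ribosomal proteins 0 of 13 were called by limma (median 0.00, 0 above and 1 below 0 at an unadjusted p under 0.05). Summed myeloid markers were 61.6 to 64.1 in plasma cell arrays against 23.6 to 25.4 in follicular arrays, with Itgam and Adgre1 of the 7 at the floor, and T cell markers 15.9 to 22.3 against 13.2, with Cd3e, Cd3g and Cd3d of the 6 at the floor; their part in these results was not tested.

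Few of the genes were called in memory against follicular cells. At day 7, 1 gene rose and 2 fell (9.18% and 9.20% of all genes), with a median of -0.17. At day 40, 1 rose and 0 fell (7.23% and 6.54%), with a median of -0.06. At an unadjusted p under 0.05, 8 lay above and 8 below 0 at day 7, and 6 and 5 at day 40. The memory arrays were all above the follicular ones in 7 genes at day 7 and 5 at day 40 (21.7% and 18.5% of all genes) and all below in 11 and 9 (25.4% and 22%). Odc1 was the rise on both days, by 1.24 ± 0.16 and 1.43 ± 0.16, at 13.41, 13.50 and 13.79 and at 13.91, 13.76 and 13.59. Nolc1 fell by 1.39 ± 0.24 at day 7, to 10.23, 9.65 and 9.86, but its other probe sets gave 0.14 and 0.13. Utp20 fell by 1.16 ± 0.17, to 9.75, 10.10 and 10.19. Day 40 memory cells had 0 genes called against day 7 (2.74% higher and 2.28% lower over all genes; 8 above and 5 below 0 at an unadjusted p under 0.05). Without day 40 replicate 2 there was 1. Day 40 arrays were all above those of day 7 in 11 genes and all below in 2 (13.8% and 13.1% of all genes). Against follicular cells, the day 40 rises numbered 2 without follicular replicate 2 or memory replicate 2, and there was 1 fall without follicular replicate 1. The 84 other assembly genes gave 1 higher and 4 lower at day 7, with Ddx56 the largest fall (-1.83 ± 0.28), and 0 of either kind at day 40 (6 above and 17 below 0 at an unadjusted p under 0.05 in limma). Summed myeloid markers ranged up to 58.1 at day 7 and from 38.0 to 56.1 at day 40, with Csf1r and Itgam, respectively, at the floor, and germinal center markers from 42.8 to 75.9 and from 50.2 to 63.4. T cell marker sums were up to 13.3 and up to 17.6, with 6 and 3 of the 6 at the floor (Cd3g, Cd4 and Thy1 on both days); their part in these results was not tested.

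Marginal zone cells had 1 gene called higher and 0 lower against follicular cells (7.21% and 3.83% of all genes). Rrp1b rose by 1.27 ± 0.18 (adjusted p = 4.70e-05), at 11.84, 12.11 and 11.66 against 10.51, 10.42 and 10.88. In 17 of the 36 genes the marginal zone arrays all lay above the follicular arrays (21.2% of all genes) and in 2 all below (16.9%). The median change was 0.26. At an unadjusted p under 0.05, 14 members lay above and 1 below 0. Without follicular replicate 2 there were 2 rises.

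Germinal center cells were set against memory cells of the same day. At day 7, 0 genes were called in either direction (11.6% and 12.1% of all genes; 15 above and 2 below 0 at an unadjusted p under 0.05), and the arrays did not overlap in 13 genes that were above and 1 below (24.7% and 22.7% of all genes). The count of calls depended on single arrays, with 4 higher without germinal center replicate 3 and 1 without memory replicate 3. Without memory replicate 1 it was 0. The choice of probe set also mattered, with 2 higher after averaging probe sets or without cross-hybridizing ones. Other probe sets rose by over 1 for Noc4l (1.16 to 1.37), Dkc1 (1.21 and 1.28) and Nop16 (1.28). In Polr1a (-1.18), Bop1 (-1.36) and Heatr1 (-1.4) another probe set fell by over 1. At day 40, 5 rose and 0 fell (15.3% and 12.6% of all genes). At an unadjusted p under 0.05, 18 lay above and 1 below 0. The 5 rises were Nop16 (1.85 ± 0.28), Nhp2 (1.56 ± 0.16), Wdr12 (1.25 ± 0.16), Gar1 (1.23 ± 0.17) and Srm (1.11 ± 0.21). Wdr12 stood at 11.36, 11.44 and 11.54 against 10.09, 10.37 and 10.13, and Gar1 at 12.72, 12.66 and 12.92 against 11.38, 11.56 and 11.67. Srm stood at 10.88, 10.94 and 11.09 against 10.11, 9.86 and 9.61. None of these groups overlapped. Wdr12 gave 0.26 in its other probe set and 0.5, not called, after averaging its probe sets, and Srm missed the minimum size without memory replicate 3 (0.99) or with arrays shifted to a common median (0.96). Over the 36 genes all germinal center arrays were above in 18 (31.8% of all genes) and below in 1 (26.8%).

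Of the 84 other assembly genes 11 rose and 1 fell at day 40, with Ddx56 (1.66 ± 0.28), Wdr18 (1.60 ± 0.42) and Bysl (1.56 ± 0.24) leading; the fall was Mdn1 (-1.03 ± 0.15). Under the alternatives the rises numbered from 6 to 11. The exosome gave 5 of 12 higher, led by Exosc3 (1.96 ± 0.27) and Exosc9 (1.86 ± 0.21).

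The difference between the days was tested as an interaction, the germinal center minus memory change at day 40 minus that at day 7. It called 3 genes higher and 0 lower (2.92% and 2.03% of all genes, or 327 and 228 genes, which became 272 and 305 with arrays shifted to a common median; 8 above and 2 below 0 at an unadjusted p under 0.05). Rrp1b gave 1.42 ± 0.26 (adjusted p = 0.00193): germinal center arrays read 10.36, 10.50 and 10.24 at day 7 and 11.25, 11.37 and 11.28 at day 40, while memory arrays read 10.90, 11.44 and 11.23 and then 10.33, 10.79 and 10.99. Germinal center cells were thus below memory cells at day 7 and above them at day 40, with no overlap. Nop16 gave 1.42 ± 0.39 (adjusted p = 0.0392) and Nhp2 1.0 ± 0.23 (adjusted p = 0.0114). Memory arrays of Nop16 read 8.90, 7.77 and 8.10 and then 7.78, 7.37 and 7.61, those of Nhp2 11.11, 11.29 and 11.02 and then 10.75, 10.40 and 10.25. Without day 7 memory replicate 1, which is high for Nop16, its value was 1.10 (adjusted p = 0.0888 by limma). The count fell to 1 without germinal center replicate 3 of either day, or memory replicate 2 or 3 of day 40. The other probe sets gave 1.14 and 1.23 for Rrp1b, 0.74 for Nop16 and 1.17 for Nhp2.

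Between the germinal center days alone 1 gene was called, Polr1b (1.47 ± 0.42, adjusted p = 0.0322; 3.58% of all genes higher and 2.36% lower), from 7.04, 6.48 and 6.70 to 8.27, 8.04 and 8.31. The groups did not overlap, as in 14 of the 36 genes that were all above (15.9% of all genes), but the call was lost without germinal center replicate 2 or 3 of day 7 or any replicate of day 40 (adjusted p = 0.0664 to 0.112 by limma). The count of members lower was 0, and 11 lay above and 0 below 0 at an unadjusted p under 0.05.

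Myc itself did not follow the same order of groups. It read 10.14, 10.15 and 10.27 in follicular cells and 13.80, 13.51 and 14.00 after stimulation (3.58 ± 0.63, adjusted p = 8.16e-05). Memory cells were split, at 11.67, 13.07 and 12.96 at day 7 and 11.62, 13.89 and 14.27 at day 40, so that 2 of the 6 arrays reached the stimulated range; both days were called higher than follicular cells by 2.38 ± 0.63 and 3.07 ± 0.63. Marginal zone arrays read 11.62, 12.92 and 11.37. The median deviation of the 36 genes from their own means was 1.54 to 1.81 on stimulated arrays, -0.62 to -0.30 on day 7 memory arrays and -0.38 to -0.18 on day 40 memory arrays. Germinal center arrays, with Myc at 8.56, 8.58 and 10.87 and then 10.38, 10.40 and 10.38, had deviations of -0.23 to -0.06 and 0.10 to 0.20. Plasma cells had the lowest Myc, at 7.81, 8.49 and 8.43. Their deviations, -0.74 to -0.47, overlapped those of day 7 memory arrays.

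**Figure D4:**
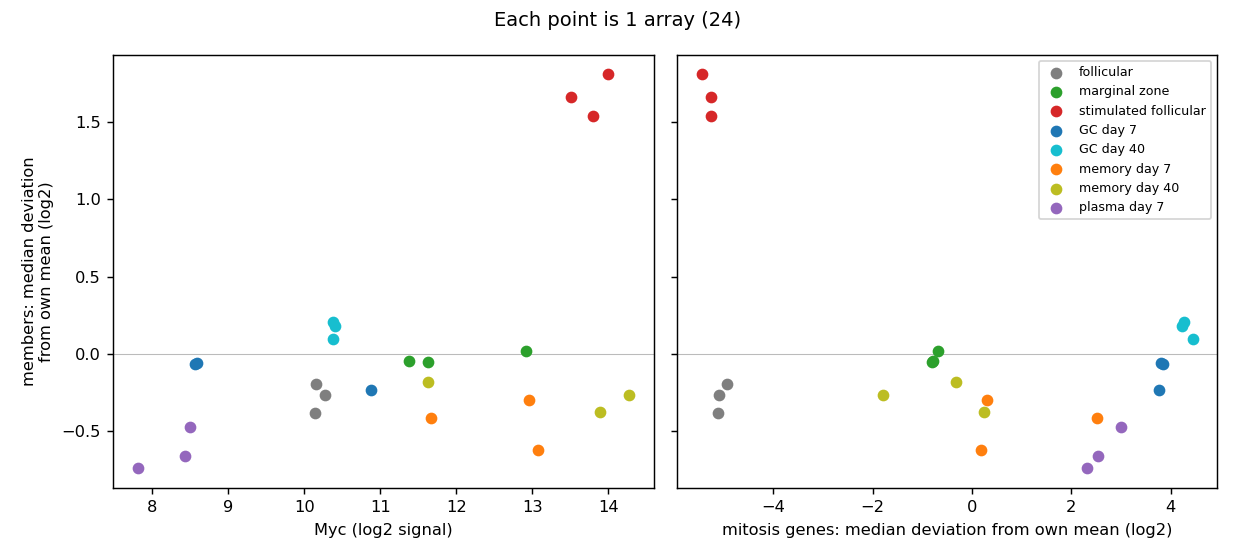
Each point is 1 of 24 arrays, coloured by group; the vertical axis is the median deviation of the 36 genes from their own means (log2), and the horizontal axes are the log2 signal of Myc and the median deviation of 11 mitosis genes. Stimulated arrays stand alone at 1.54 to 1.81; of the memory arrays, 2 of 6 reach the Myc range of stimulated arrays (13.51 to 14.00) at deviations below 0, and germinal center arrays have the highest mitosis values.

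In the network of MYC partners and antagonists 1 of 9 genes rose after stimulation, Myc, and 4 fell. Mxd4, which competes with MYC for MAX, went from 11.63, 11.93 and 11.68 to between 4.0 and 5.37 (-7.13 ± 0.27), and Mxd1 from 8.81, 8.85 and 8.75 to 3.79, 4.77 and 3.98 (-4.62 ± 0.27). In plasma cells Mxd1 (2.31 ± 0.27), Mxi1 (1.90 ± 0.22) and Mxd4 (1.46 ± 0.27) rose. Max read 12.71, 12.65 and 12.83 in follicular and 12.57, 12.44 and 12.52 in stimulated cells, and Mycn read 2.15 to 2.16 on all of them.

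Mitosis genes went with other groups than the ribosome genes. Mki67, a marker of dividing cells, averaged 7.24 in follicular and 7.13 in stimulated cells, 14.80 and 14.85 in germinal center cells of day 7 and day 40, 14.24 in plasma cells, and 12.70 and 11.86 in memory cells. Of 11 mitosis genes, 9 rose in marginal zone, 10 in memory cells of each day, 11 in germinal center cells of each day and 11 in plasma cells, all against follicular cells, whereas after stimulation 1 rose (Cdc20, 1.23 ± 0.48) and 1 fell (Aurkb, -3.15 ± 0.53).

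The 36 genes resembled each other mainly through the stimulated group. Across the 8 group means, the correlation of a gene with the median of the other members had a median of 0.90, ran from 0.41 (Odc1) to 0.99 (Rcl1), and was above 0.8 for 33. Over the 7 groups without stimulated cells the median was 0.65, from -0.59 (Gnl3) to 0.91 (Gar1 and Rcl1), with 7 above 0.8 and 5 below 0. The 5 were Gnl3, Srm, Wdr74, Odc1 and Nop14. These are descriptions over few points that share arrays and normalization. In the 11 pairwise comparisons without stimulated cells, 18 of the 36 genes were called in none, where 33.5% of all genes were called in none.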

How the data were processed

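Signals of 45101 probe sets on 24 Affymetrix mouse genome arrays were used as deposited. The authors' log2 values were made with GCRMA, per the submitters' processing notes; the version and any further normalization are not given in the sources used here. Of the probe sets, 34945 named 1 gene, 932 several and 9224 none. Each gene was read from its 1-gene probe set with the highest mean, so that genes with several probe sets rest on the brightest, and 11208 of 18193 genes were tested, those above the array median on at least 3 arrays. limma 3.58.1 in R 4.3.3 fitted 8 group means over 24 arrays, and other steps used Python 3.11.15 and matplotlib 3.10.9. The fit was tested on simulated data. Calls needed a Benjamini-Hochberg adjusted p under 0.05 and a log2 change of at least 1. No arrays were identical (0 pairs).

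The members, the pathway lists (RNA polymerase I factors, small and large subunit factors, exosome, RNA polymerase III, other MYC targets, MYC network, ribosomal proteins, mitosis) and the tests were chosen with earlier results of these data known. Named with array values were, in each role, the 2 members with the largest range of group means and the 1 with the smallest, and called members per comparison, at least the 3 largest in each direction; other lists gave their 2 largest rises and falls, of which some are left out. Promoters came from RefSeq (GRCm38.p6). Cells of the marginal zone after stimulation were not analysed here. Alternatives changed the scaling, the filter, the log offset, the choice of probe set, the prior, array weights, the arrays fitted, the minimum change and the replicate block.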

Additional observations from a re-analysis of the deposited data

Results flagged for a closer look

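For 3 genes the germinal center minus memory difference changed between day 7 and day 40 by limma's interaction test in the fit over all genes. The differences of differences were 1.42 ± 0.26 for Rrp1b (adjusted p = 0.00193), 1.42 ± 0.39 for Nop16 (adjusted p = 0.0392) and 1.0 ± 0.23 for Nhp2 (adjusted p = 0.0114). Rrp1b kept its call under each alternative except when each group lost the array that had least of its signals at the floor (1.37, adjusted p = 0.0609 by limma). Nop16 lost its call in 14 of the alternatives, with values from 1.10 to 1.5. Nhp2 sat at the minimum size and lost its call in 13, with values from 0.88 to 1.0.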

How the results depend on the processing

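Of 105 calls of single members, tested under 3968 combinations with an alternative, 67 values lost the call, in 18 of the calls, and 3 reversed. The reversed ones were all plasma against follicular cells: 0.08 for Nolc1 (limma adjusted p = 0.789) and 0.02 for Rrp1b (adjusted p = 0.982) after averaging a gene's probe sets, and 0.71 for Wdr43 (adjusted p = 0.00458) without cross-hybridizing probe sets. The stimulated counts held within 1.5 times under each alternative.

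With no minimum change, the members called higher and lower were 8 and 1 in marginal zone against follicular cells, 7 and 7 in day 7 memory, 5 and 2 in day 40 memory, 13 and 4 in day 7 germinal center, 14 and 1 in day 40 germinal center and 5 and 16 in plasma cells, all against follicular cells. They were 12 and 2 in germinal center against memory at day 7, 16 and 1 at day 40, 3 and 1 between the memory days, 3 higher between the germinal center days and 22 lower in plasma against germinal center cells. Over all 11208 genes tested, this setting gave 2999 higher and 2797 lower in day 40 germinal center against follicular cells. The shares of all genes printed above hold for calls with the minimum change and are no background for these counts. With the mean of probe sets, day 7 memory had 2 higher, plasma against follicular cells 4 lower, and day 7 germinal center against memory 2 higher. Without cross-hybridizing probe sets, the higher counts were 0 in both memory comparisons with follicular cells and in both plasma comparisons, since Odc1, Srm and Gnl3 drop out, and 2 in day 7 germinal center against memory. Array weights gave 1 lower in day 7 germinal center against follicular cells and 2 higher against memory. With no filter on dim genes 0 were higher between the germinal center days. Dropping from each group the array that had least of its signals at the floor, an alternative chosen after seeing the data, gave 1 lower in day 40 memory, 2 higher and 1 lower in day 7 germinal center, 1 higher between the memory days and 1 in the interaction.

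Leaving out 1 array at a time gave 1 to 2 higher in marginal zone, 1 to 2 higher and 0 to 1 lower in day 40 memory, 0 to 1 lower in day 7 germinal center and 4 to 7 higher in day 40 germinal center cells, against follicular cells. It gave 0 to 4 higher in germinal center against memory at day 7, 0 to 1 between the memory days, 0 to 1 between the germinal center days and 1 to 3 in the interaction.

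With the replicate block the stimulated comparison kept 34 higher and the interaction had 2, since Nop16 (1.42) reached a limma adjusted p of 0.0556; no count moved by over 1.5 times. Correlations of deviations between samples with the same number ran from -0.50 to 0.44 and were above 0.1 for every pair in 0 of 13 comparisons, so the numbers were not taken to pair the samples. Plasma against germinal center cells came nearest (0.07 to 0.33), with 5 of 6 arrays correlating best with their own number, a hint from the data and not from the design. Replicate 2 was the array with least signal at the floor in 7 of 8 groups. Shifting arrays to a common scale moved the median of all genes by 0.32 in stimulated against follicular cells, by 0.28 to 0.36 in stimulated against germinal center cells, by up to 0.15 in plasma cells and, with a common median, by -0.11 to -0.15 in day 40 germinal center comparisons, where a common upper quartile gave -0.03 to 0.02. Values near the floor or the top of the scale limit what these signals can resolve, and 3 arrays a group limit the precision.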
